A study of Homo sapiens with 3 samples.

Results

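The BCL2 family genes of survival and death were described here in 22Rv1 WT cells, an established human prostate carcinoma cell line with an intact risk enhancer and the non-risk G allele of its SNP. The 10 genes, BCL2, BCL2L1, MCL1, BAX, BAK1, BBC3, PMAIP1, BCL2L11, BAD and BID, were taken by symbol through their Ensembl gene identifiers, without use of their levels. All 10 had a row of their own among the 27024 genes counted. The data were 3 RNA-seq libraries, replicates 1 to 3, for which no drug treatment is named. The study describes these WT samples both as control clones and as biological replicates, so the SDs and p-values may reflect clones, cultures or technical spread. Levels are the authors' normalized counts, namely reads per gene divided by a size factor of the library. Between 35675670 and 38629080 reads per library lay on the genes counted. The prostate marker HOXB13 was high at 9956 ± 200 normalized counts (SD, n = 3), as was the epithelial keratin KRT8 at 25161 ± 789. All 7 prostate luminal markers examined were expressed, but not all of them at a high level. The leukocyte marker PTPRC had at most 1 read in a library. Of the fibroblast markers, DCN was at 20.5, 0.8 and 3.9 and COL1A1 at 278, 244 and 261 normalized counts in replicates 1, 2 and 3, and the part of such transcripts in the results was not tested.

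BCL2 family proteins control the permeability of the outer mitochondrial membrane, the committed step of intrinsic apoptosis. Survival members (BCL2, BCL-XL from BCL2L1, and MCL1) hold the pore-forming members BAX and BAK in check. BH3-only members (PUMA from BBC3, NOXA from PMAIP1, BIM from BCL2L11, BAD and BID) carry stress signals and bind the survival proteins, and some of them activate BAX and BAK directly. The proteins meet through the BH3 helix of a death member, which lies in a groove of a survival member. In prostate cancer BCL2 and BCL-XL have long been studied in resistance to androgen deprivation.

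The BH3 core is what all 10 genes share in sequence, so its codons are shown first. A search of the coding sequence of each canonical transcript (GENCODE, GRCh37) looked for a leucine, any 3 residues, then glycine, alanine or serine, then aspartate. It found 1 match in 9 of the genes and 2 in BID, of which the match with glycine is shown. The pattern is loose, since 34.9% of 19393 protein-coding genes hold it at least once. Each line gives 9 codons from the leucine on, 5′ to 3′ on the coding strand, with the leucine codon and the 2 codons of the fifth and the sixth residue in capitals.
BCL2: CTCcgccaggccGGCGACgacttctcc
BCL2L1: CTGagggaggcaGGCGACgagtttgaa
MCL1: TTAcgacgggttGGGGATggcgtgcag
BAX: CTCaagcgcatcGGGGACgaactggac
BAK1: CTCgccatcatcGGGGACgacatcaac
BBC3: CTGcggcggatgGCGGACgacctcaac
PMAIP1: CTCaggagatttGGAGACaaactgaac
BCL2L11: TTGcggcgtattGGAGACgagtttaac
BAD: CTCcggaggatgAGTGACgagtttgtg
BID: CTCgcccaggtcGGGGACagcatggac
The fifth residue was glycine in 8 genes, alanine in BBC3 and serine in BAD. Of the 10 leucine codons, 6 were CTC, and TTA in MCL1 and TTG in BCL2L11 each occurred once. None of the windows crossed an intron. The survival genes carry the core in the second exon of BCL2 (chr18:60985585-60985611, minus strand), the second exon of BCL2L1 (chr20:30309728-30309754, minus strand) and exon 1 of MCL1 (chr1:150551344-150551370, minus strand). In the pore-forming genes it lies in exon 3 of BAX (chr19:49459044-49459070, plus strand) and exon 4 of BAK1 (chr6:33543167-33543193, minus strand). In the BH3-only genes it lies in exon 3 of BBC3 (chr19:47729839-47729865, minus strand), exon 2 of PMAIP1 (chr18:57569905-57569931, plus strand) and exon 3 of BCL2L11 (chr2:111907680-111907706, plus strand). In BAD it lies in exon 3 (chr11:64039097-64039123, minus strand) and in BID in exon 4 (chr22:18222184-18222210, minus strand). PMAIP1 encodes the shortest protein of the 10, with 54 residues, and MCL1 the longest, with 350.

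All 10 genes were expressed, at 1 CPM (reads scaled by library size) or more in each of the 3 libraries. Counts grow with transcript length, so the genes were put in order per kilobase of the canonical transcript, the reference transcript that the annotation names for each gene. On that scale MCL1 came first at 3132 ± 60.3 normalized counts per kilobase and BAX second at 2959 ± 199 (SD, n = 3). Their ranges over the libraries overlapped, so no order between this pair can be given. BAD followed at 1957 ± 107, BBC3 at 688 ± 42.4, BCL2L1 at 473 ± 12.3 and BAK1 at 419 ± 6.11 normalized counts per kilobase. PMAIP1 at 278 ± 24.2, BCL2L11 at 147 ± 6.31, BID at 109 ± 11.6 and BCL2 at 53.8 ± 6.08 were the lowest. From BAX down to BCL2, the ranges of neighbours in this order did not overlap. The order depended on the length used for each gene.

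**Figure D1:**
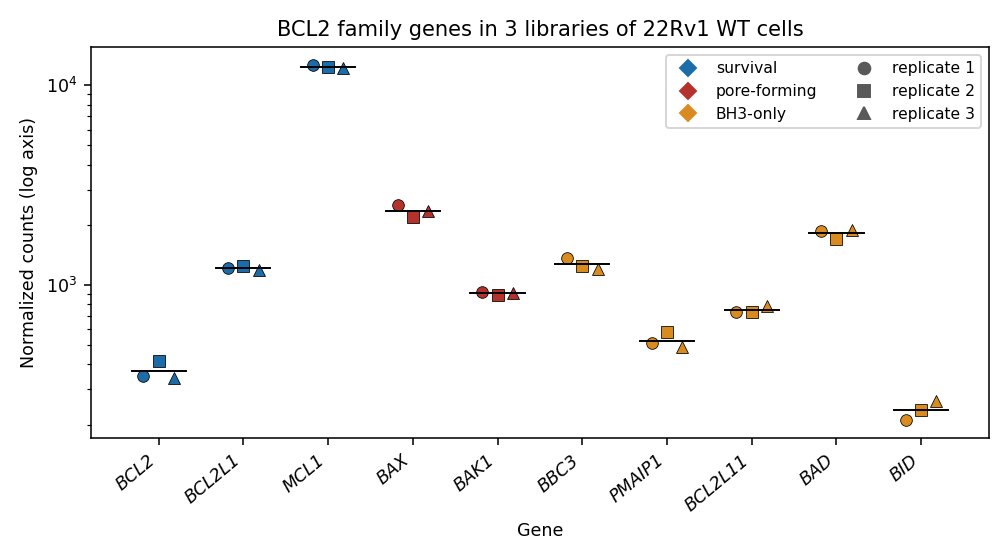
Normalized counts (log axis) of the 10 BCL2 family genes in the 3 WT libraries, with symbols for replicates, colours for roles and a bar at the mean. Means run from 236 for BID to 12371 for MCL1. The counts are not divided by length, so the plot shows the spread of the replicates of a gene and not the order of the genes.

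Among the survival genes, MCL1 was high and BCL2 low. MCL1, a short-lived protein that binds BIM, NOXA and BAK, had 12627.6, 12329.8 and 12157 normalized counts in replicates 1, 2 and 3. Replicate 1 was the highest, and the libraries lay within 2.07% of their mean. Per kilobase, MCL1 was above 94.3% of the expressed genes. BCL2L1, whose main product BCL-XL is a survival protein of many epithelial cells, had 1214.3, 1251.6 and 1188.8 normalized counts. It was the survival gene in the middle, above 62.1% of expressed genes per kilobase. BCL2, the founding member of the family, had 350, 418 and 341.7 normalized counts. Replicate 2 lay 13.0% above the mean, and per kilobase BCL2 was above 14.4% of the expressed genes. MCL1 made up 85.6% ± 0.45 (SD, n = 3) of the survival arm, that is, of the summed level per kilobase of the 3 genes. It made up 83.9% to 86.5% with the other lengths tried. The long BCL2L1 exons overlap the antisense RNA ABALON over 41.3% of their bases. The ABALON row held between 30.5 and 32.3 normalized counts, and since the strand setting of the counting is not given in the sources used here, reads of the 2 genes may not have been told apart.

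Of the pore-forming genes, BAX was far above BAK1. BAX, which moves from the cytosol to mitochondria when activated, had 2517.1, 2201.9 and 2339 normalized counts in replicates 1, 2 and 3. Replicate 1 was the highest and replicate 2 the lowest, with differences of 6.99% and -6.41% from the mean. BAK1, which encodes BAK, the resident of the mitochondrial membrane, had 921.2, 895.3 and 913.2 normalized counts. It had the smallest spread of the 10 genes, an SD of 1.46% of the mean. The level of BAX per kilobase was 7.05 ± 0.38 (SD, n = 3) times that of BAK1 with the canonical transcripts. This ratio was 2.21 with all exons of each gene merged, because the canonical BAX transcript has 795 bases and its merged exons have 2587, while BAK1 has 2170 and 2212. BAK1 shares 29.3% of its transcript at 98.3% identity with the pseudogene BAK1P1, which has no row, and the counting could have lost or misplaced such reads.

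Of the BH3-only genes, BAD and BBC3 were high and BID low. BAD, a sensor of growth factor signals, had 1862.2, 1704.3 and 1888.7 normalized counts in replicates 1, 2 and 3, with replicate 2 the lowest. Per kilobase it was above 90.4% of the expressed genes and made up 61.5% ± 1.65 (SD, n = 3) of the BH3-only arm. That share was 56.9% with merged exons, 56.6% with the longest transcripts and 33.7% with coding lengths. BAD exons overlap GPR137 on the opposite strand over 23.7% of their bases, and GPR137 itself held between 1350 and 1463 normalized counts. BBC3, which encodes the stress-induced protein PUMA, had 1358.1, 1245.7 and 1207.7 normalized counts, with replicate 1 the highest. BCL2L11, the BIM gene under control of FOXO factors, had 734, 729.5 and 787.3 normalized counts. Its libraries differed by at most 1.08 times. PMAIP1, whose product NOXA binds mainly MCL1, had 511.2, 578.8 and 491.3 normalized counts. As with BCL2, replicate 2 was the highest, 9.81% above the mean. BID, which links death receptors to mitochondria once caspase 8 has cut it, had 210.9, 236.9 and 261.4 normalized counts. Its highest library was 1.24 times its lowest, the widest ratio of the 10 genes. BCL2L11 overlaps the antisense RNA MIR4435-2HG over 10.8% of its exon bases, and that RNA had at most 4.7 normalized counts.

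Summed per kilobase of the canonical transcripts, the 3 arms as listed here were nearly level in WT cells. The survival genes held 35.8% ± 1.01 of the summed level of the 10 genes, the pore-forming genes 33.0% ± 0.96 and the BH3-only genes 31.1% ± 0.47 (SD, n = 3). The survival arm was 1.04, 1.15 and 1.07 times the pore-forming arm in replicates 1, 2 and 3, a mean of 1.09 ± 0.06 (SD, n = 3). This near balance rested on the length used for each gene. The ratio was 1.47 with the longest transcripts, 1.75 with merged exons and 2.55 with coding lengths, each time in favour of the survival arm. Without MCL1 the survival arm was 0.157 ± 0.01 times the pore-forming arm, and between 0.198 and 0.410 times with the other lengths. The BH3-only arm was 0.869 ± 0.03 times the survival arm, and between 0.764 and 0.884 times with the other lengths. These arms hold the 10 listed genes alone, and their shares and ratios depend on that list. Left out were the survival gene BCL2L2 at 578 per kilobase, above BCL2L1 at 473, the pore-forming relative BOK at 238 and others. Levels of RNA do not give levels of protein, which were not measured in these libraries.

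Ratios within a library spread over the 3 replicates to differing degrees, and these spreads were not tested. MCL1 per kilobase was 6.78, 6.42 and 6.66 times BCL2L1 in replicates 1, 2 and 3, an SD of 2.76% of the mean. NOXA and MCL1, a known pair, gave a PMAIP1 level of 0.084, 0.098 and 0.084 times MCL1, with replicate 2 apart from the others. The mean of this ratio was 0.089 with canonical transcripts and 0.276 with coding lengths. BAX over BCL2, the ratio often used as an index of the tendency to die, was 62.2, 45.6 and 59.2. Its SD was 15.9% of the mean, and replicate 2 was the lowest because BCL2 was highest and BAX lowest there. Its mean was 55.7 with canonical transcripts but 8.01 with coding lengths, so for such ratios only the change between libraries can be read without a choice of length.

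**Figure D2:**
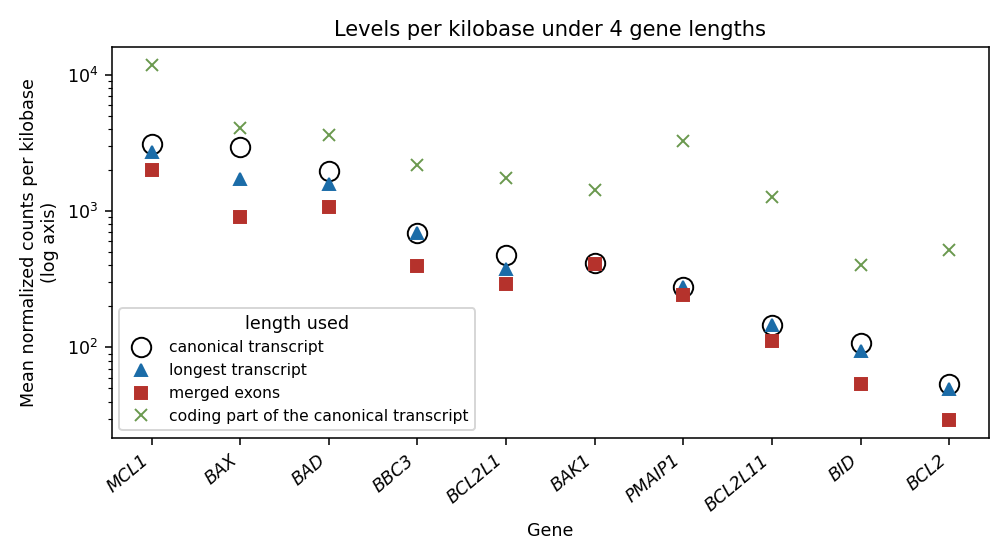
Mean normalized counts per kilobase (log axis) of the 10 genes with 4 gene lengths, ordered by the canonical transcript. MCL1 was highest and BCL2 or BID lowest with every length, while BAX moved from 2959 to 909 between canonical transcript and merged exons and PMAIP1 rose to 3254 with its coding length.

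With merged exons BAD at 1065 normalized counts per kilobase stood above BAX at 909, and BAK1 at 411 above both BBC3 at 399 and BCL2L1 at 290. With coding lengths PMAIP1 rose to 3254, above BBC3 at 2194, and BCL2 at 516 passed BID at 404. MCL1 kept rank 1 and BCL2L11 rank 8 with each of the 4 lengths.

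Differences between the WT libraries were tested on the recovered reads, that is, whole read counts obtained from the deposited values. In reads, 6 of the 10 genes differed among the libraries by a chi-square test of homogeneity with Benjamini-Hochberg adjustment over all genes tested. In the same test 41.9% of 14646 genes differed, and 44.1% of the 10165 genes within the range of mean reads of these 10 did. BAX differed most clearly (adjusted p = 2.56e-05), with 3186, 2602 and 2971 reads in replicates 1, 2 and 3. MCL1 (adjusted p = 0.00455), BBC3 (0.0067), BAD (0.00747), BCL2 (0.00977) and PMAIP1 (0.0194) differed too. For MCL1, with 15983, 14570 and 15442 reads, this was a highest library only 1.04 times its lowest. BID (adjusted p = 0.0784), BCL2L11 (0.305), BCL2L1 (0.413) and BAK1 (0.848) did not pass. Relative to the mean, the SD of the 10 genes ran from 1.46% for BAK1 to 11.3% for BCL2, with a median of 5.82%, against 5.56% for all genes tested and 4.21% for the 10165 genes in their range of reads.

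The chi-square test takes reads as independent and makes no allowance for the spread between replicates. With edgeR's trended dispersion added, such an allowance, fitted to the same libraries, 0 of the 10 genes differed, against 0.416% of all genes, and 0 of the 10 had an unadjusted p under 0.05, against 801 of 14646 genes. The smallest unadjusted p was that of BAX, 0.0996. Without replicate 2, BCL2, PMAIP1 and BAD no longer passed the chi-square test and BID did. Without replicate 1, MCL1, BAX and BBC3 no longer passed, and without replicate 3, MCL1, BBC3 and PMAIP1 did not. Fewer of all genes passed too when 1 library was left out. Of all genes tested, 3950 of 14639 passed without replicate 1, 3332 of 14668 without replicate 2 and 3447 of 14646 without replicate 3. With all 3 libraries 6141 of 14646 passed.

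**Figure D3:**
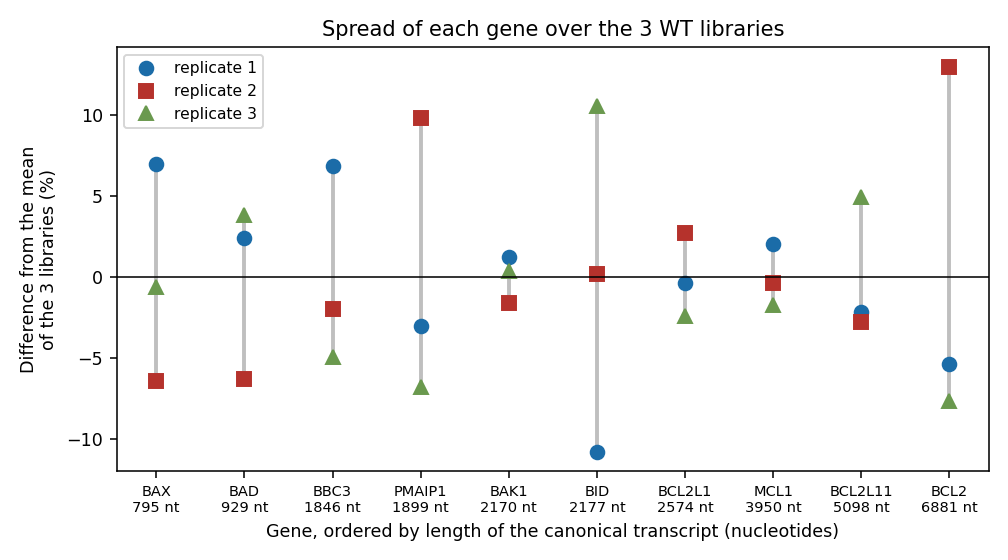
Difference of each library from the mean of the 3 libraries (%), for the 10 genes ordered by transcript length. Replicate 2 was below the mean for the short BAX and BAD and 13.0% above it for BCL2, the longest, while BID in replicates 1 and 3 differed from it by -10.8% and 10.6%.

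Across all genes, the deviations of replicate 2 went along most evenly with transcript length and GC content. Across the 10 genes, those of replicates 1 and 2 did so, in opposite directions. Across 14571 genes, the deviation of replicate 2 had a Spearman's rho of 0.25 with length and -0.19 with GC content. For replicate 1 these values were -0.06 and 0.16, and for replicate 3 they were -0.18 and 0.03. Across the 10 BCL2 family genes the rho with length and with GC content was -0.64 and 0.76 in replicate 1, 0.59 and -0.72 in replicate 2, and -0.12 and 0.31 in replicate 3. They are descriptions across genes of the same libraries, whose deviations from a shared mean are not independent. Length and GC content are themselves linked among these genes. BCL2, with 6881 bases the longest of the 10 transcripts, was highest in replicate 2, and BAX and BAD, the shortest with 795 and 929 bases, were lowest there. PMAIP1, with the lowest GC content of the 10, 36.7%, was also highest in replicate 2. BCL2L11 with 5098 bases was lowest there despite its length. With a length and GC trend removed from each library, a step chosen after seeing the data, BAX, MCL1, BBC3 and PMAIP1 still differed, against 36.8% of all genes. BCL2 (adjusted p = 0.0586) and BAD (0.315) did not pass after this step. Across the 10 genes the rho with length was then 0.25 in replicate 2 and still -0.65 in replicate 1.

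Of the other BCL2 family genes, 13 were examined, and 9 of them were expressed. The survival gene BCL2L2, which encodes BCL-W, had 2037 ± 118 normalized counts (SD, n = 3), which is 578 per kilobase and above BCL2L1 on that scale. The remaining survival genes were hardly seen, BCL2A1 with 0, 0 and 0.8 normalized counts in replicates 1, 2 and 3 and BCL2L10 with 15.8, 17.8 and 13.4. The pore-forming relative BOK was at 625 ± 27.8 normalized counts. The BH3-only genes BMF, BIK and HRK had 279 ± 35.3, 110 ± 15.8 and 34.4 ± 5.14 normalized counts (SD, n = 3). Per kilobase of canonical transcript BIK was at 116 and BMF at 59.4, both above BCL2, while HRK at 5.94 was below it. With coding lengths BIK at 230 and BMF at 505 were below BCL2 at 516. On the canonical length BCL2L12 led at 1521, followed by BNIP3, a mitophagy receptor, at 745. BCL2L2 came next, then BCL2L13 at 515, and the mitophagy receptor BNIP3L was at 359. This order depended on the length used. With merged exons BNIP3 at 284 was below BCL2L2 at 421, and with coding lengths BCL2L2 at 3518 was above BCL2L12 at 2158. BCL2L14 with 11.1, 16.9 and 26.8 normalized counts, on a row that repeats a neighbouring identifier, and BCL2L15 with 2.4, 8.5 and 7.1 were not expressed at 1 CPM. In the chi-square test 5 of the 11 genes with enough reads differed between libraries (BCL2L2, BMF, BCL2L12, BCL2L14 and BNIP3L), a share close to the 41.9% of all genes. With the added dispersion 0 of 11 did, against 0.416% of all genes, and 0 had an unadjusted p under 0.05, against 801 of 14646.

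Downstream and upstream of the family, 49 further genes of 6 lists were examined, of which 42 were expressed. Of 43 genes tested, 21 differed between the libraries, or 48.8%, against 41.9% of all genes. With edgeR's dispersion added 0 of them did, against 0.416% of all genes, and 4 had an unadjusted p under 0.05, against 801 of 14646. The median SD of the 43 genes was 4.81% of the mean. In the mitochondrial arm 9 of 9 genes were expressed. On the canonical length VDAC1, a channel of the outer membrane, led at 4077 normalized counts per kilobase, above MCL1 and BAX. With coding lengths VDAC1 at 8831 was below MCL1 at 11782, but CYCS, the gene of cytochrome c, was above both at 62940. CYCS had 3650 per kilobase of canonical transcript. With merged exons it was at 3424, above VDAC1 at 2459. APAF1, the scaffold of the apoptosome, was the lowest of the list on the canonical length, at 190. Of 7 caspases, 6 were expressed. CASP8, the caspase that cuts BID, was the lowest expressed at 60.9 normalized counts per kilobase. CASP8 had 158.8, 161.6 and 165.3 normalized counts, an SD of 2.01% of the mean. CASP10 had 11.1, 4.2 and 4.7 and was not expressed.

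**Figure D4:**
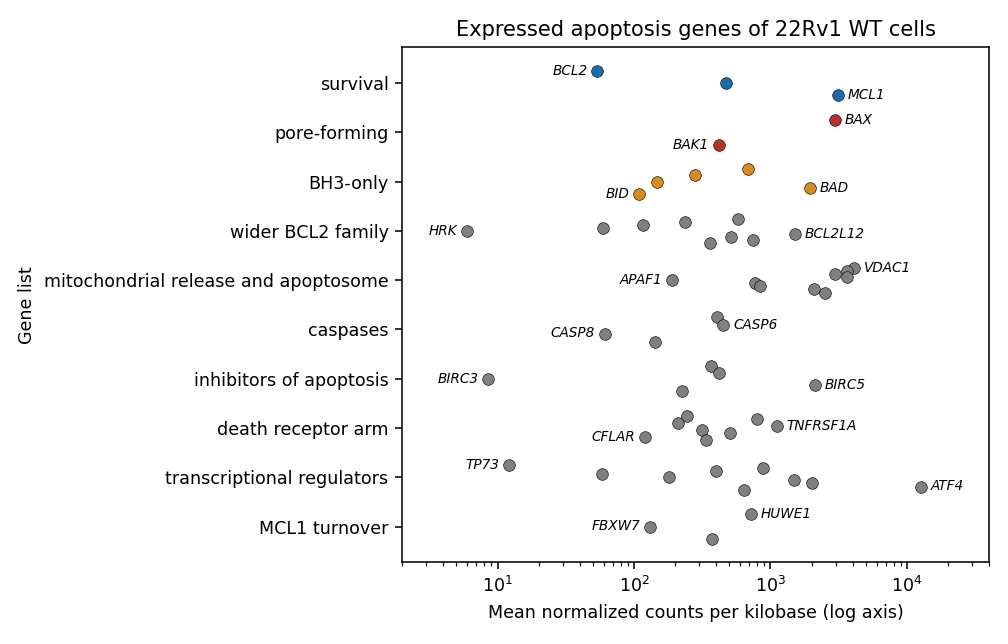
Mean normalized counts per kilobase of canonical transcript (log axis) of the expressed genes of each list, with the highest and the lowest plotted gene of a list named and the 10 BCL2 family genes in colour. FAS has no length and is not plotted, and a few other genes are left out. With this length ATF4 at 12647 and VDAC1 at 4077 lay above MCL1 at 3132, and CASP8 at 60.9 lay beside BCL2 at 53.8.

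Of the inhibitors of apoptosis, 5 of 7 genes were expressed. BIRC5, the survivin gene of dividing cells, led at 2108 normalized counts per kilobase and BIRC3 was the lowest at 8.55. BIRC7 had 0 reads in each library, where a count of 0 allows up to 3 reads, and NAIP had at most 12.6 normalized counts. In the death receptor arm 9 of 12 genes were expressed. On the canonical length, which FAS lacks, the TNF receptor gene TNFRSF1A led at 1109 per kilobase. CFLAR, the gene of the caspase 8 inhibitor FLIP, was the lowest there at 120. FAS had 349, 306 and 262 normalized counts, and the TRAIL receptor gene TNFRSF10B had 3169 ± 80.7 (SD, n = 3). With merged exons TNFRSF10B at 632 per kilobase was above TNFRSF1A at 572. With coding lengths TNFRSF10B at 2401 was above TNFRSF1A at 1763, and CFLAR at 1219 was above TNFRSF10A at 472. The ligand genes FASLG and TNFSF10 and the decoy receptor TNFRSF10C had 0 reads in each library. Another decoy receptor of the list, TNFRSF10D, was expressed, with 706.3, 751.5 and 755.8 normalized counts in replicates 1, 2 and 3.

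Among 11 transcriptional regulators linked to BH3-only genes, 10 were expressed and 2 of the 10 tested differed between libraries, against 41.9% of all genes. ATF4, of the integrated stress response that can raise PMAIP1 and BBC3, was the highest at 12647 normalized counts per kilobase, and its SD was 0.309% of the mean. DDIT3, which encodes CHOP and can raise BCL2L11 and BBC3, had 2023, 1657 and 1798 normalized counts and differed between libraries (chi-square test, adjusted p = 2.99e-09). As for BAX, replicate 1 was its highest library and replicate 2 its lowest. MDM2, a ubiquitin ligase gene, differed too, at 6562 ± 385 normalized counts (SD, n = 3). TP73 was the lowest expressed gene at 12.1 per kilobase, and TP63 had 0 reads. Of the 3 genes of MCL1 turnover, the ligase gene HUWE1 was at 724 normalized counts per kilobase, the deubiquitinase USP9X at 370 and FBXW7 at 131. HUWE1 was highest in replicate 2 and lowest in replicate 3, while MCL1 was highest in replicate 1 and also lowest in replicate 3.

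For the 3 genes highest per kilobase, the genes with the most similar profile were sought by the Euclidean distance of log2(normalized counts + 1) over the 3 libraries. For MCL1 they were GNAS (distance 0.030) and GSR (0.035), for BAX RING1 (0.033) and QTRT1 (0.052), and for BAD DNAJC9 (0.022). With 3 libraries and counts not divided by length, this is mainly a likeness in the number of counts. BID, with 267, 280 and 332 reads, had the fewest reads of the 10 genes. If a gene fell to 3 reads, the most that a count of 0 allows, the drop from its WT mean would be 6.61 on the log2 scale for BID and 12.32 for MCL1. These limits allow for counting error alone and not for the spread between libraries. Molecular identifiers are not named in the sources used here.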

How the data were processed

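The RNA-seq data were 3 libraries of 22Rv1 WT cells. Per the paper's methods and the labels, the authors aligned paired reads with HISAT2 to GRCh37, used a GENCODE gene model, obtained counts from HTSeq and divided them by DESeq2 size factors. The deposited signal per gene is thus a read count divided by 1 size factor per library (1.27, 1.18 and 1.27). Strandedness, annotation release and handling of multi-mapping reads are not given in the sources used here. Whole reads were recovered from the step of each library, and 100% of values above 0 came out whole within 0.06. Rows that repeated the reads of the row above in all libraries were merged with it (1976 of 29000), none of them one of the 10 genes. BCL2L14, NAIP and PTPRC were on such rows. The design had assumed raw counts, so levels are given as deposited and tests used the recovered reads.

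Scaling of library sizes used TMM (edgeR 4.0.16, R 4.3.3). Genes averaging 10 reads or more were tested by chi-square tests of homogeneity with Benjamini-Hochberg adjustment at 0.05 (scipy 1.17.1). The test was checked on counts simulated with sampling noise alone, which cannot show how it behaves with spread between replicates. DESeq2 1.42.0 gave alternative size factors. Lengths, GC content and coordinates were read from the lifted GENCODE annotation (GRCh37), and copies were searched with minimap2 2.31. Named genes were the 10 genes, the wider family, the highest and lowest expressed gene per kilobase of each list, and the 2 nearest profiles of the top 3 genes. Some of these genes are not reported here. Other pathway genes named were chosen after their values were seen. The members and lists were chosen with earlier results of these data known. Enhancer KO and risk-allele libraries were not used here.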

Additional observations from a re-analysis of the deposited data

How the results depend on the processing

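In the chi-square test over all genes, 6141 differed between libraries. The number was 61 with edgeR's trended dispersion added and 44 with the length and GC trend removed as well, and 3332 to 3950 with each replicate left out, where fewer libraries were compared. For the BCL2 family genes the number was 6 of 10, then 0 and 0 under the first 2 of these settings, and 3 to 4 with each replicate left out. Other library scalings, minimum counts of 1 and 50 reads and unmerged rows gave 6 of the 10 genes each time, and removal of the trend alone gave 4. The ratio of the survival to the pore-forming arm, 1.09, was 1.75 with merged exons, 1.47 with the longest transcripts and 2.55 with coding lengths, and 1.05 to 1.11 with each replicate left out. The share of single genes in the summed level moved by more than 1 SD in 24 of 60 values, all of them with another gene length. A mean with 1 replicate left out could not move that far. Levels of single genes moved in 0 of 60 values, which the common scale and the 3 libraries largely fix. All 10 genes were expressed at 0.5 and at 5 CPM. No paired analysis was possible because only 1 group was analysed.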
